A study of Mus musculus with 6 samples.

Results

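Alternative activation markers are genes that macrophages switch on under interleukin 4 and interleukin 13, cytokines of the response to worms and allergens. The markers described here are the 8 genes Chi3l3 (current symbol Chil3), Mrc1, Il4ra, Retnla, Ccl24, Ccl17, Ccl22 and Il10. They were chosen by name from the 38124 genes of the deposited table, and all 8 had a row. RNA was measured in wild-type bone-marrow-derived macrophages of C57BL mice, which are cells grown in culture from marrow precursors. The 3 exposed libraries came from macrophages kept for 24 hr with thymocytes that dexamethasone, a synthetic glucocorticoid, had driven into apoptosis. The ratio was given as 1:40, and the apoptotic cells were removed before RNA extraction. The 3 untreated libraries came from macrophages without apoptotic cells. No cytokine treatment is named in the labels, which also give no age or sex of the mice. The libraries are stated to be biological replicates.

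Interleukin 4 and interleukin 13 bind receptors that share the chain encoded by Il4ra. This chain signals through Janus kinases to the transcription factor STAT6, which binds at target genes such as Retnla and Chil3 in mouse macrophages. Mrc1 encodes the mannose receptor, which takes up glycoproteins. Chi3l3 and Retnla encode secreted proteins known as Ym1 and RELM-alpha. Ccl24 encodes an eosinophil attractant that acts on the receptor CCR3, while Ccl17 and Ccl22 encode ligands of CCR4, a receptor of T cells. Il10 encodes the anti-inflammatory cytokine interleukin 10, which macrophages also make outside the interleukin 4 programme.

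The 8 markers did not move as a block. Chi3l3 rose 118-fold, to about the level of Mrc1, and Il4ra rose 1.51-fold, while Il10 fell 9.07-fold. Mrc1 was high in both groups and did not pass the test. Retnla, Ccl24, Ccl17 and Ccl22 stayed near 0, under 1 RPKM in all 6 libraries, with at most 13 reads in any of them. RPKM are reads on a gene scaled to its length in kilobases and to the depth of the library, so that levels of different genes can be set side by side.

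**Figure D1:**
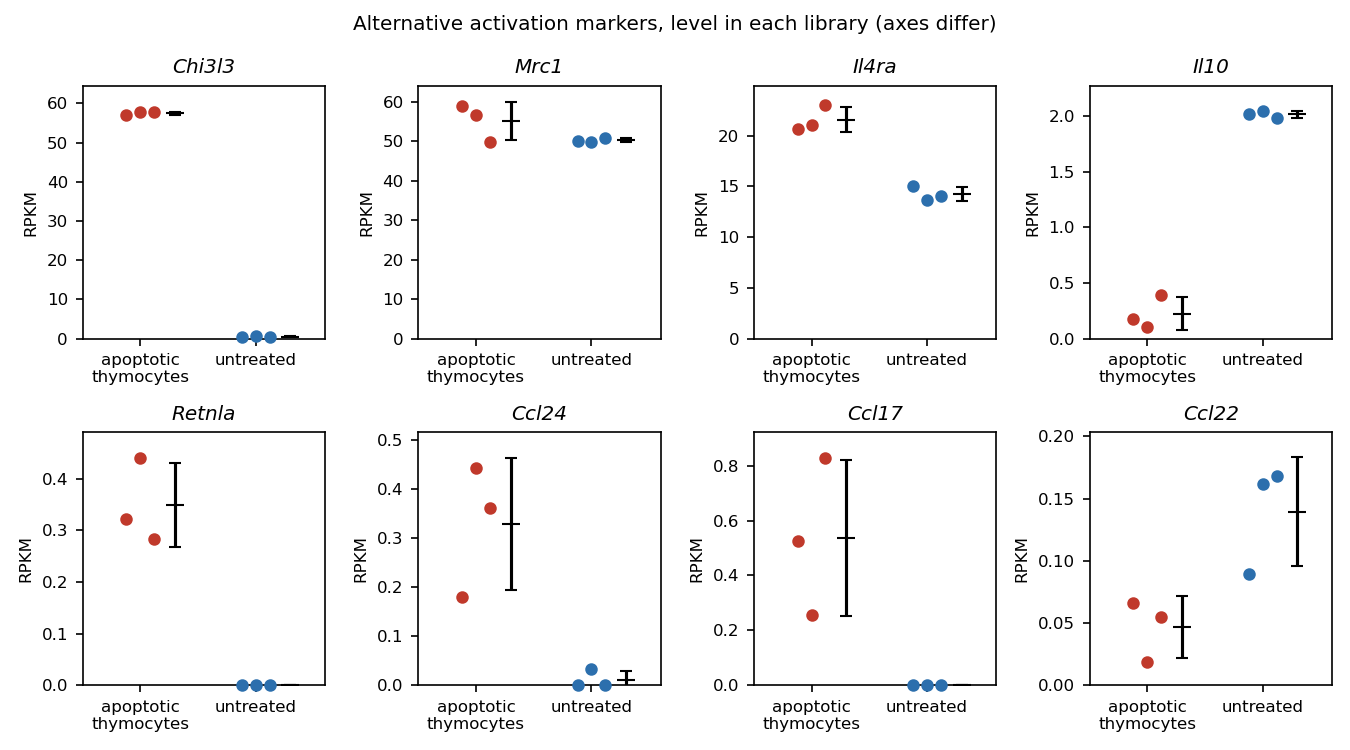
Each panel shows 1 marker in RPKM on its own axis from 0, with 1 point per library, exposed libraries in red on the left and untreated libraries in blue on the right, and the mean with its SD in black beside the points. Chi3l3 stood at 57.0 to 57.8 RPKM in exposed libraries and at or below 0.666 RPKM in untreated libraries, Il10 showed the opposite order, and the 4 panels of the lower row remained under 1 RPKM.

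The promoters of 4 genes are printed here because they set a marker that rose (Chil3) beside its close copy that was listed at 0 (Chil4) and beside markers that stayed near 0 (Retnla, Ccl17). The RefSeq promoter table on GRCm38.p6 held 6 of the 8 markers, in windows of 300 bases that begin 250 bases before the gene start. Ccl24 and Il10 had no entry there. Capitals mark matches to TTC and GAA with 4 bases between them (the STAT6 spacing), TTCNNNGAA (other STAT factors) and TTGCNNAA (C/EBP) on either strand. The windows lie at chr3:106167515-106167814 on the minus strand (Chil3), chr3:106219430-106219729 on the minus strand (Chil4), chr16:48842359-48842658 on the plus strand (Retnla) and chr8:94810203-94810502 on the plus strand (Ccl17).
Chil3: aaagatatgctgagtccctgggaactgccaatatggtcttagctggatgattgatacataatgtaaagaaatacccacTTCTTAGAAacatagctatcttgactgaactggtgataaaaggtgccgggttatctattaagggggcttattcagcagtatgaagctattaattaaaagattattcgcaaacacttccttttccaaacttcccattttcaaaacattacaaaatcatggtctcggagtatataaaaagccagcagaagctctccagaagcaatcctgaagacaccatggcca
Chil4: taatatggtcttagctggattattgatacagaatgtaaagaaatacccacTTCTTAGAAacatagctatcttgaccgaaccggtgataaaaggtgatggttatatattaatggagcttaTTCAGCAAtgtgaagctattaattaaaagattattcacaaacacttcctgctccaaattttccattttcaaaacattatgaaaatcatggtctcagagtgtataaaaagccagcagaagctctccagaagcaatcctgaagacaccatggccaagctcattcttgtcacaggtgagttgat
Retnla: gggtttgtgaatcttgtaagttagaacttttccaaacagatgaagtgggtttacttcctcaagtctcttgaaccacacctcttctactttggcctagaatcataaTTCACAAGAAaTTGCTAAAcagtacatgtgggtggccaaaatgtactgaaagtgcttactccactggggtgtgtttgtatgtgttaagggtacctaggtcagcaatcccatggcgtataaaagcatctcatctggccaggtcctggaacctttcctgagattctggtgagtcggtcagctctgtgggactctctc
Ccl17: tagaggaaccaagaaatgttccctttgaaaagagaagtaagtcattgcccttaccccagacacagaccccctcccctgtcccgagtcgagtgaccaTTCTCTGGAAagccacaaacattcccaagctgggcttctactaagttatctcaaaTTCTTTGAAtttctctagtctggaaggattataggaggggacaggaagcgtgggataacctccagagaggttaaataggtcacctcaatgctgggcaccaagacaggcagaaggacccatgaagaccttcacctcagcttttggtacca

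The STAT6 letters were present in the windows of Retnla and Ccl17, 145 and 154 bases upstream of the start, and in 6.95% of the 32851 windows of the table. Chil3 and Chil4 both held the shorter STAT letters, 172 and 200 bases upstream, as did Ccl17 at 99 bases, against 8.3% of all windows. The C/EBP letters stood in the windows of Retnla and Chil4 and in 10.8% of all windows. The glucocorticoid receptor letters, GNACA and TGTNC with 3 bases between them, were in 0 of the 6 marker windows and 0.475% of all windows. The letters TGACNNNGC, read by NRF2, were in that of Il4ra and 12.4% of all. These matches describe letters and do not show binding. The Chil3 and Chil4 windows were identical at 76.3% of the columns of their end-to-end alignment, gaps included. They are shifted against each other, with the same STAT letters at 172 and 200 bases. Overhanging ends therefore lower this share, and identity over the shared stretch alone was not computed. Chi3l4, the table's name for Chil4, was listed at 0 in all 6 libraries.

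Of the 8 markers, 4 reached 1 RPKM in at least 3 libraries and entered the test across genes (limma on log2(RPKM + 1), adjusted p under 0.05). Of these, 2 rose, 1 fell and 1 did not pass. The same test called 64.8% of 10173 tested genes, 18.8% higher and 46.0% lower, so a call was common. Chi3l3 passed the filter only through exposed libraries and Il10 only through untreated ones, so that both had to differ between the groups to be tested. Over all tested genes the median log2 change was -0.13. Scaling by the median of ratios, which puts it near 0 (0.02), gave 3234 higher and 2832 lower genes in place of 1915 and 4679. Beside their own log2 changes, the markers are therefore also given relative to the median gene. In bulk RNA, fewer cells that express a gene and less RNA per cell cannot be told apart.

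Mrc1 (ENSMUSG00000026712, chromosome 2, 14229414 to 14332057) is the marker receptor with the highest level. It stood at 58.9, 56.8 and 49.7 RPKM in exposed libraries, against 50.03, 49.9 and 50.9 RPKM in untreated libraries. One exposed library lay below all untreated ones, and the groups overlapped. The means were 55.1 ± 4.78 and 50.3 ± 0.548 RPKM (SD, n = 3 each), and the log2 change was 0.13 with a 95% interval of -0.01 to 0.27 (limma, adjusted p = 0.0982). Relative to the median gene the log2 change was 0.26. The call rested on exposed replicate 3 and on the scaling. Without that library the log2 change was 0.20 (limma, adjusted p = 0.00184), and with median-of-ratios scaling it was 0.29 (limma, adjusted p = 0.00186). A total of 849 genes of the table had a higher mean in exposed libraries and 964 in untreated libraries.

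Il4ra (ENSMUSG00000030748, chromosome 7, 125552282 to 125579472) rose in exposed macrophages. Its values were 20.7, 21.03 and 23.0 RPKM in exposed libraries, against 15.05, 13.6 and 14.1 RPKM in untreated libraries. Every exposed library lay above every untreated one, as was the case in one direction or the other for 69.6% of tested genes. The log2 change was 0.56 with an SE of 0.0564 (limma, adjusted p = 2.34e-05), or 0.70 relative to the median gene. Another gene, Gm44876, shares 7.95% of the 75-base windows of Il4ra, on the same or the opposite strand. Whether strand was used in counting is not given in the sources used here, so reads of both could have been counted together.

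The partner chains of the interleukin 4 receptor did not rise with it. Il2rg, the common gamma chain that completes the type I receptor, fell to 18.2 ± 0.416 RPKM in exposed libraries, against 35.3 ± 1.30 RPKM in untreated libraries (log2 change -0.91; limma, adjusted p = 1.68e-07). The level of Il4ra was thus 1.18 ± 0.0606 times that of Il2rg in exposed libraries and 0.404 ± 0.0157 times in untreated libraries. Il13ra1, which completes the type II receptor, was 4.03 ± 0.338 RPKM in exposed libraries and 4.91 ± 0.122 RPKM in untreated libraries (log2 change -0.24; limma, adjusted p = 0.00787), a fall that missed the threshold after median-of-ratios scaling (limma, adjusted p = 0.184). The decoy receptor gene Il13ra2 and the ligand genes Il4 and Il13 were near 0, with at most 3 reads over the libraries of either group.

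Of the 10 tested genes of interleukin 4 and interleukin 13 signalling other than Il4ra, 2 rose and 8 fell. Over all tested genes 18.8% were called higher and 46.0% lower. The median log2 change of the 10 genes was -0.22, beside -0.13 over all tested genes. Under the median-of-ratios scaling the calls were 2 higher and 4 lower, beside 3234 higher and 2832 lower of 10152 tested genes. Jak1, the kinase held by Il4ra's product, rose to 36.1 ± 0.526 RPKM in exposed libraries, against 32.1 ± 0.340 RPKM in untreated libraries. Stat6 was 55.2 ± 1.10 RPKM in exposed libraries and 60.1 ± 0.385 RPKM in untreated libraries, a log2 change of -0.12 that passed (limma, adjusted p = 0.022) but changed sign after that scaling (0.05; limma, adjusted p = 0.375). The call for Stat6 was also lost without exposed replicate 2 (limma, adjusted p = 0.0779) and without untreated replicate 1, 2 or 3 (limma, adjusted p = 0.0604, 0.0633 and 0.0843). Jak2 (-0.20; limma, adjusted p = 0.0384) failed to pass in 8 of 14 alternatives, and Tyk2 (-0.20) did not pass after the scaling. Irs2, an adaptor of the receptor, and the phosphatase gene Ptpn6 fell by log2 changes of -0.38 and -0.50. Jak3, the kinase bound to the gamma chain, fell to 2.03 ± 0.188 RPKM in exposed libraries, against 3.08 ± 0.0516 RPKM in untreated libraries. The phosphatase gene Ptpn1, whose product can dephosphorylate Janus kinases, rose to 52.7 ± 2.81 RPKM in exposed libraries, against 32.6 ± 0.368 RPKM. The feedback genes Socs1 and Cish were too low to be tested, at 0.705 ± 0.207 and 0.103 ± 0.0066 RPKM in exposed libraries and 0.813 ± 0.0468 and 0.171 ± 0.0341 RPKM in untreated libraries.

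**Figure D2:**
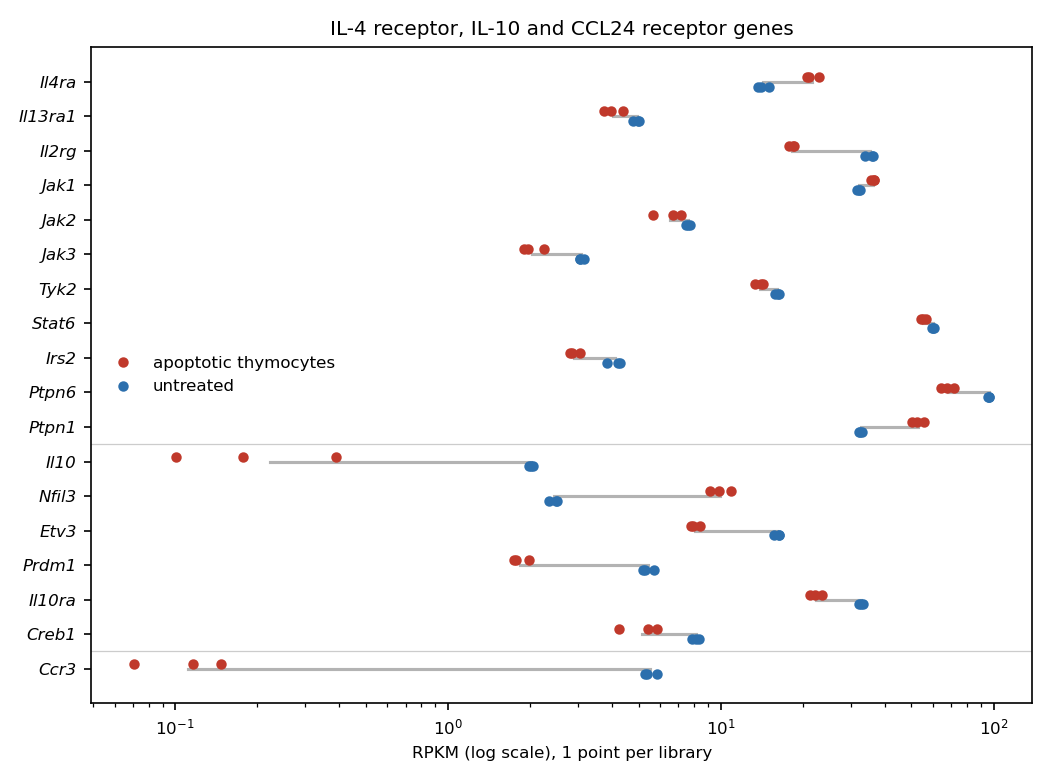
Levels in RPKM on a log axis, with 1 point per library and a grey line between the group means, exposed libraries in red above untreated libraries in blue. The upper block holds Il4ra and the tested genes of its pathway, the middle block Il10 and the 5 tested genes of its list with the smallest p, and the lowest row Ccr3. Il4ra moved to the right and Il2rg to the left, and Il10 and Ccr3 showed the widest gaps.

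Among secreted effectors, Chi3l3 (ENSMUSG00000040809, chromosome 3, 106147554 to 106167564) had the largest log2 change of the 4 tested markers. It stood at 57.0, 57.8 and 57.7 RPKM in exposed libraries, on 2413, 2148 and 2217 reads. Untreated libraries had 0.508, 0.666 and 0.292 RPKM, on 16, 26 and 11 reads. The exposed values lay within 1 RPKM of each other, and the groups were far apart. The log2 change was 5.30 with an SE of 0.0837 (limma, adjusted p = 1.93e-10), or 5.43 relative to the median gene. Its level equalled 1.05 ± 0.0993 times that of Mrc1 in exposed libraries and 0.00975 ± 0.00383 times in untreated libraries. A total of 818 genes had a higher mean in exposed libraries, and 10969 in untreated ones.

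Chi3l3 was alone among the chitinase-like genes in reaching this level. Chil4, its close copy, shares 94.3% of aligned positions in the longest coding transcript, but only 13% of the 75-base windows of Chil3 occur in Chil4 or in the pseudogene Gm6522. With Chi3l4 listed at 0, how reads of shared windows were placed cannot be read from the table. Chi3l7 and Chit1 were listed at 0 in all 6 libraries as well. Chi3l1, a secreted chitinase-like protein of human and mouse, had 19 reads over the exposed libraries and 1 over the untreated libraries. The more distant members Chid1 and Ctbs went opposite ways. Chid1 rose to 3.53 ± 0.115 RPKM in exposed libraries, against 2.25 ± 0.125 RPKM in untreated libraries, and Ctbs, which breaks down chitobiose in lysosomes, fell to 5.72 ± 0.140 RPKM, against 10.7 ± 0.220 RPKM.

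Chi3l3 is also made by neutrophils and their marrow precursors in the mouse, and genes of that lineage moved with it. Of 9 neutrophil markers 3 were tested and called higher, beside 18.8% of all tested genes, but S100a9 and Ngp passed the filter only through exposed libraries and had to differ to be tested. S100a8, a subunit of calprotectin, was 26.3 ± 1.30 RPKM in exposed libraries and 5.86 ± 0.291 RPKM in untreated libraries. S100a9, its partner, was 11.5 ± 0.823 and 0.726 ± 0.0647 RPKM, and the granule protein gene Ngp was 2.81 ± 0.122 and 0.181 ± 0.111 RPKM. The granule genes Camp and Ltf had 33 and 66 reads over the exposed libraries and 1 and 7 over the untreated libraries. Among the defining markers, Ly6g was at 0 in all 6 libraries, Mpo had 2 reads over the exposed libraries and 6 over the untreated ones, and Elane had 7 and 0. Over the 9 genes the summed level was 40.2 to 43.0 RPKM in exposed libraries and 6.59 to 7.28 RPKM in untreated libraries. Most of it came from S100a8 and S100a9 in both groups. Their part in the rise of Chi3l3 was not tested.

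**Figure D3:**
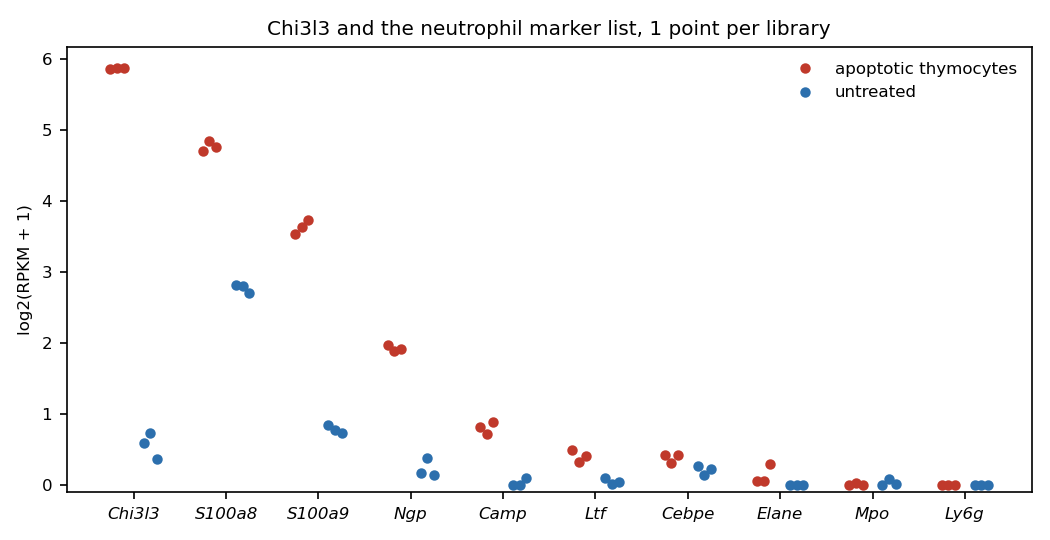
Levels as log2(RPKM + 1) of Chi3l3 and the 9 genes of the neutrophil list, with 1 point per library, exposed libraries in red to the left of untreated libraries in blue. S100a8, S100a9 and Ngp rose beside Chi3l3, while Ly6g lay at 0 in both groups.

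Retnla (ENSMUSG00000061100, chromosome 16, 48842552 to 48844461), a classical partner of Chi3l3 in alternative activation, stayed near 0. It had 0.322, 0.440 and 0.284 RPKM in exposed libraries, on 5, 6 and 4 reads, and 0 reads in each untreated library. The groups did not overlap. The 15 exposed reads carry an exact Poisson interval of 8.4 to 24.7, and that of a count of 0 over the untreated group reaches 3.69 reads. For the ratio a limit of 3 reads was set, below that end. The pooled exposed level was 4.59 times the level of those 3 reads, a ratio that leaves out the counting error of the exposed reads. Its exact permutation test over the 6 libraries gave p = 0.1, the smallest value that 3 against 3 can reach (two-sided). Its relatives Retnlg and Retn had 7 and 1 reads over the exposed libraries and 0 and 1 over the untreated ones, and Retnlb was listed at 0. Retnlg is expressed in neutrophils of the mouse.

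Among the chemokines, Ccl24 (ENSMUSG00000004814, chromosome 5, 135569937 to 135573043) had 0.179, 0.443 and 0.362 RPKM in exposed libraries and 0, 0.0325 and 0 RPKM in untreated libraries. These values rested on 6, 13 and 11 reads against a single read, and the groups did not overlap. The ratio of pooled levels was 27.5, with an exact counting interval of 4.57 to 1123. Ccr3, the receptor of this ligand, was itself expressed in the untreated libraries. It fell to 0.112 ± 0.0387 RPKM in exposed libraries, against 5.50 ± 0.284 RPKM in untreated libraries (log2 change -2.55; limma, adjusted p = 1.78e-09), and it passed the filter only through untreated libraries. CCR3 is a receptor of eosinophils, and of the eosinophil and mast cell list Siglec5, which also passed the filter only through untreated libraries, was 0.0946 ± 0.0118 RPKM in exposed libraries and 1.25 ± 0.217 RPKM in untreated libraries, while Prg2 and Epx had at most 1 read in either group. Over the 6 genes of that list the summed level was 0.0829 to 0.173 RPKM in exposed libraries and 1.07 to 1.47 RPKM in untreated libraries, where nearly all of it came from Siglec5. Mcpt4 and Fcer1a were at 0 in all 6 libraries, and Cpa3 had 0 reads over the exposed libraries and 2 over the untreated ones. The part of such cells in the fall of Ccr3 was not tested.

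Ccl17 (ENSMUSG00000031780, chromosome 8, 94810453 to 94812035) had 0.526, 0.257 and 0.828 RPKM in exposed libraries, on 7, 3 and 10 reads, and 0 reads in each untreated library. The exposed reads numbered 20 over the group, with a Poisson interval of 12.2 to 30.9. Their pooled level was 6.12 times that of 3 reads over the untreated group, the limit set for a count of 0. The Poisson interval of a count of 0 reaches 3.69 reads, and the ratio leaves out the counting error of the exposed reads. Ccl22 (ENSMUSG00000031779, chromosome 8, 94745590 to 94751699) is its neighbour and shares its receptor, but its values went the other way. They were 0.0663, 0.0189 and 0.0548 RPKM in exposed libraries and 0.0891, 0.162 and 0.168 RPKM in untreated libraries, on 4, 1 and 3 reads against 4, 9 and 9. The groups did not overlap in RPKM. The pooled counts of 8 and 22 reads have Poisson intervals of 3.45 to 15.8 and 13.8 to 33.3, which overlap slightly. Such an overlap is no test of a difference, and the ratio of these counts was not tested. Ccl24, Ccl17 and Ccl22 each gave p = 0.1 in the exact permutation test, which is the smallest it can give.

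Ccl17 and Ccl22 are also products of dendritic cells, and markers of these cells were low. Of 10 dendritic cell markers only Itgax, which macrophages express too, was tested, and it fell to 4.73 ± 0.0222 RPKM in exposed libraries, against 11.8 ± 0.273 RPKM in untreated libraries. Xcr1 was at 0 in all libraries and Flt3 at or below 0.0107 RPKM on average. Ccr7, Flt3 and Dpp4 had 16, 6 and 6 reads over the exposed libraries and 5, 1 and 2 over the untreated ones. Zbtb46, Clec9a, Cd209a, Siglech and Kmo went the other way, with 10, 3, 0, 1 and 10 reads against 39, 11, 8, 5 and 12. The summed level of the list was 4.81 to 5.04 RPKM in exposed libraries and 11.8 to 12.3 RPKM in untreated libraries, nearly all of it from Itgax. Between Ccl22 and Ccl17 lies Cx3cl1, which encodes fractalkine and was too low to be tested, at 0.0791 ± 0.0162 RPKM in exposed libraries and 0.341 ± 0.029 RPKM in untreated libraries. Ccr4, the receptor of both chemokines, had 1 read over the exposed libraries and 0 over the untreated libraries.

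**Figure D4:**
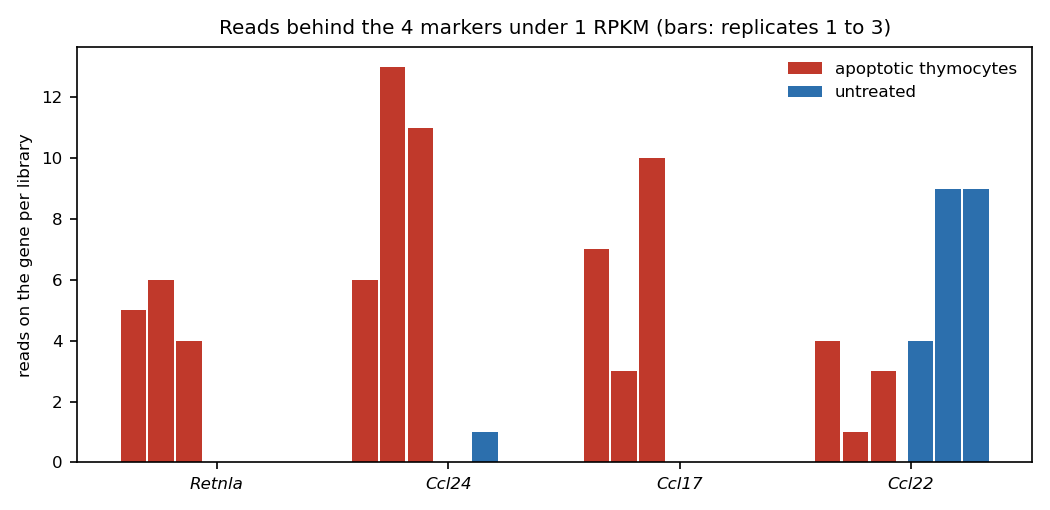
Reads per library on the 4 markers under 1 RPKM, with 1 bar per replicate, exposed libraries in red to the left of untreated libraries in blue; a missing bar is a count of 0. Retnla and Ccl17 had 0 reads in every untreated library, and Ccl22 was the only one of the 4 with more reads in untreated libraries (22 over the group) than in exposed libraries (8).

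Il10 (ENSMUSG00000016529, chromosome 1, 131019845 to 131024974) was the marker that fell. It had 0.177, 0.101 and 0.389 RPKM in exposed libraries, against 2.02, 2.04 and 1.99 RPKM in untreated libraries. These values rested on 6, 3 and 12 reads against 51, 64 and 60, and the groups were clearly apart. The log2 change was -1.31 with an SE of 0.0867 (limma, adjusted p = 1.37e-06), or -1.18 relative to the median gene. On the log2(RPKM + 1) scale a gene at this level loses much of its change, and with a pseudocount of 0.1 the log2 change was -2.82. Of the related cytokine genes in the same cluster, Il20 and Il24 were listed at 0 in all 6 libraries, and Il19 had 2 reads over the exposed libraries and 1 over the untreated libraries.

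The receptor of interleukin 10 and its regulators went both ways. Among 12 tested genes of that list, 5 were called higher, 6 lower and 1 neither, and the median log2 change was -0.10. Over all tested genes 18.8% were called higher and 46.0% lower. After median-of-ratios scaling the calls were 6 higher and 4 lower, beside 3234 higher and 2832 lower of 10152 tested genes. Il10ra, the ligand-binding chain, fell to 22.3 ± 1.11 RPKM in exposed libraries, against 32.7 ± 0.554 RPKM in untreated libraries. Nfil3, a transcription factor gene induced by interleukin 10 in macrophages, rose 4.06-fold to 9.95 ± 0.904 RPKM, against 2.45 ± 0.0854 RPKM in untreated libraries. Prdm1, which encodes Blimp-1, fell to 1.84 ± 0.125 RPKM, against 5.39 ± 0.271 RPKM. The repressor gene Etv3 fell to 8.03 ± 0.300 RPKM, against 16.1 ± 0.346 RPKM, and Creb1 fell to 5.15 ± 0.833 RPKM, against 8.08 ± 0.235 RPKM. Socs3, a target of the cytokine, was too low to be tested, at 0.808 ± 0.0812 RPKM in exposed libraries and 0.903 ± 0.129 RPKM in untreated libraries.

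By level, Chi3l3 and Mrc1 led in exposed libraries and did not differ beyond their spread, followed by Il4ra at 21.6 ± 1.26 RPKM. Ccl17, Retnla, Ccl24 and Il10 followed with ranges that overlapped, and Ccl22 was lowest at 0.0467 ± 0.0248 RPKM. In untreated libraries the order was Mrc1, Il4ra at 14.3 ± 0.717 RPKM, Il10, Chi3l3 and Ccl22, each apart from the next, and then Ccl24 with a single read and Ccl17 and Retnla at 0.

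Other genes of alternative activation went both ways. The 15 tested genes of that list had a median log2 change of -0.32, with 4 called higher, 9 lower and 2 neither, beside 18.8% higher and 46.0% lower over all tested genes. After median-of-ratios scaling 4 were called higher and 8 lower, beside 3234 higher and 2832 lower of 10152 tested genes. F13a1, Cd163 and Il1rn are among 4 that passed the filter through a single group. F13a1, which encodes a coagulation factor subunit, rose 36.1-fold to 8.12 ± 0.125 RPKM, against 0.225 ± 0.0568 RPKM in untreated libraries. The lectin gene Clec10a rose 7.09-fold to 9.98 ± 0.417 RPKM, against 1.41 ± 0.0287 RPKM. Il1rn, which encodes the interleukin 1 receptor antagonist, fell 13.2-fold to 0.612 ± 0.0995 RPKM, against 8.06 ± 0.580 RPKM. Tgm2, the transglutaminase marker, fell 3.59-fold and the beta-glucan receptor gene Clec7a, which encodes Dectin-1, fell 3.48-fold. Arg1, the arginase marker most used beside Retnla and Chi3l3 in mouse, had 1 read over the exposed libraries and 2 over the untreated libraries. Mgl2, a lectin gene next to Clec10a, was too low to be tested, with 67 reads over the exposed libraries and 8 over the untreated libraries.

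Among 11 tested regulators of the programme 7 were called lower and 4 higher, beside 46.0% and 18.8% of all tested genes, with a median log2 change of -0.57. After median-of-ratios scaling the calls were 6 lower and 4 higher, beside 2832 lower and 3234 higher of 10152 tested genes. Egr2 and Nr4a1 passed the filter only through untreated libraries. Egr2, an early growth response factor of alternatively activated macrophages, fell 22.1-fold to 0.339 ± 0.0428 RPKM, against 7.48 ± 0.326 RPKM in untreated libraries. Pparg, Rbpj, Myc and Nr4a1 also fell, by log2 changes of -1.32, -1.24, -1.57 and -1.84. Irf4, a STAT6 target, was too low to be tested, at 0.208 ± 0.0201 RPKM in exposed libraries and 0.607 ± 0.117 RPKM in untreated libraries. Classical activation genes are the usual counterpart. The 7 tested genes had a median log2 change of -0.54. Of them 6 were called lower and 0 higher, beside 46.0% lower and 18.8% higher over all tested genes. After median-of-ratios scaling 6 were called lower and 1 higher, beside 2832 lower and 3234 higher of 10152 tested genes. Tnf fell 11.8-fold, and Ccl5, Irf5 and Cd80 fell by log2 changes of -0.54, -0.48 and -0.53. Nos2, Il12a, Il12b, Il23a and Il6 were near 0 in both groups.

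Glucocorticoid targets rose in the same libraries as Chi3l3. The 10 genes of this list were all tested and had a median log2 change of 1.99, with 8 called higher and 1 lower, beside 18.8% and 46.0% of all tested genes. Of the 8, Ddit4, Zbtb16 and Cd163 passed the filter only through exposed libraries and had to differ to be tested. Fkbp5 rose 36.6-fold to 73.2 ± 2.90 RPKM, against 1.998 ± 0.134 RPKM in untreated libraries. Tsc22d3, which encodes the protein GILZ, rose 5.24-fold to 77.4 ± 2.99 RPKM, against 14.8 ± 1.34 RPKM. Cd163, the haemoglobin scavenger receptor that also counts as a marker of macrophages under glucocorticoids, rose 28.2-fold to 3.70 ± 0.373 RPKM, against 0.131 ± 0.00649 RPKM. Errfi1 fell, by a log2 change of -0.30. Sgk1 did not pass, at 22.9 ± 0.407 RPKM in exposed libraries and 22.9 ± 0.687 RPKM in untreated libraries, but was called higher after the scaling. The part of dexamethasone carried over with the thymocytes in the changes of the markers was not tested.

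**Figure D5:**
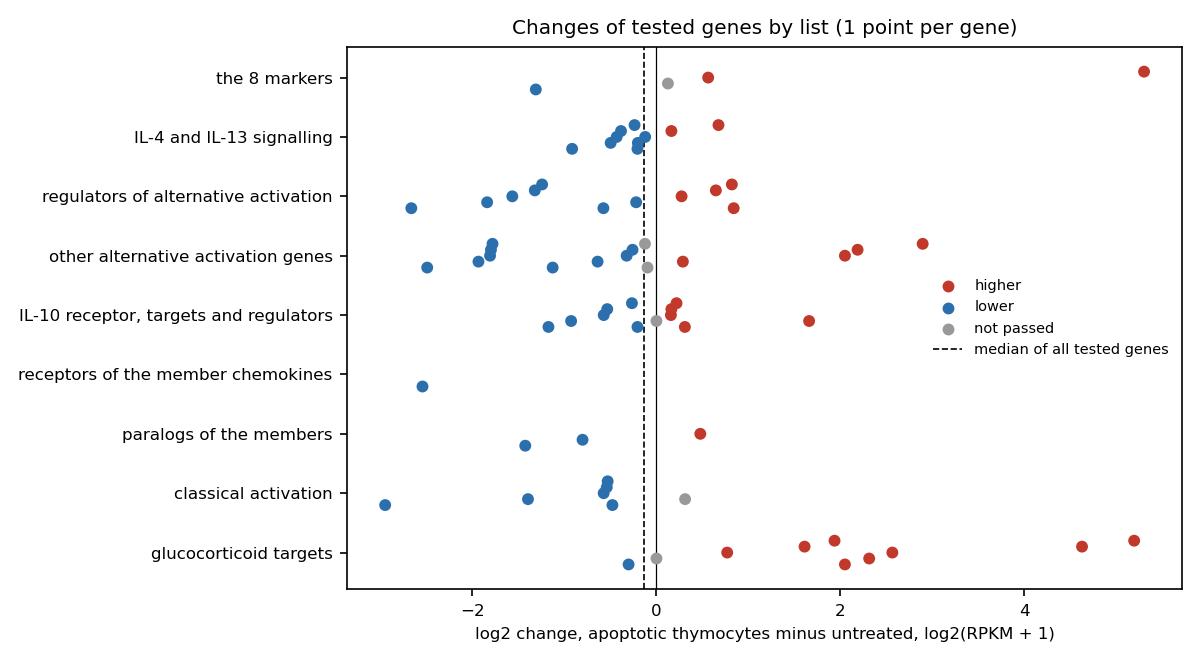
Log2 change, exposed minus untreated, on the log2(RPKM + 1) scale for every tested gene of the 8 markers and of 8 related lists, with 1 point per gene, red for higher, blue for lower and grey for not passed, and a dashed line at the median of all tested genes (-0.13). The markers and most other lists spread to both sides, while 9 of the 10 glucocorticoid targets lay to the right of it.

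The genes whose profile over the 6 libraries was nearest to that of each tested marker are given as a description. Closeness is the Euclidean distance of centred log2(RPKM + 1) values, and genes averaging 5 RPKM or more were compared (6381, or 6382 for Il10). For Chi3l3 they were Hmox1 (distance 0.268), Ddit4 (0.360) and Gsta3 (0.458). Those nearest to Mrc1 were Tbc1d15 (0.0559), MIA3 (0.0623) and Plekha1 (0.0665), none of which passed the test. Il4ra was nearest to Sidt2 (0.0626), Rragd (0.0651) and Tnfaip2 (0.0748), which rose by log2 changes of 0.59, 0.53 and 0.60. Il10 was nearest to Vcl (0.102), Rhov (0.135) and Relb (0.140).

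On the chromosome, the nearest tested genes on each side were looked up for every marker. Il21r, the next tested gene after Il4ra with its start 51147 bases away, fell to 0.220 ± 0.109 RPKM in exposed libraries, against 2.27 ± 0.168 RPKM in untreated libraries (log2 change -1.42; limma, adjusted p = 3.8e-07), and passed the filter only through untreated libraries. Nsmce1, on the other side of Il4ra, fell by a log2 change of -0.19. Mapkapk2, whose start lies 33859 bases from that of Il10, fell to 48.7 ± 3.93 RPKM, against 67.1 ± 0.929 RPKM. Yod1, on the other side of Il10, did not pass (log2 change 0.02). The nearest tested genes around Chi3l3 were 188185 and 334851 bases away by their starts, and Wdr77 on one side did not pass while Dennd2d on the other rose by a log2 change of 0.23. Around Ccl22 and Ccl17, Arl2bp did not pass and Ciapin1 fell by a log2 change of -0.17. Stam and Nsun6 around Mrc1 and Plcxd2 and Dzip3 around Retnla did not pass. Hip1 and Rhbdd2 around Ccl24 fell by log2 changes of -0.96 and -0.32. Of all tested genes 46.0% were called lower.

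Depth was 22782450 to 25933208 mapped reads in exposed libraries and 19315132 to 23907256 in untreated libraries, recovered from the deposited values, and a single read per kilobase equalled 0.0386 to 0.0518 RPKM. Pearson r across tested genes was 0.994 to 0.998 within groups and 0.935 to 0.940 between groups. All 8 macrophage markers were tested, and 2 were called higher and 6 lower, beside 18.8% and 46.0% of all tested genes. The calls became 2 higher and 4 lower under the median-of-ratios scaling, beside 3234 higher and 2832 lower of 10152 tested genes. The defining marker Emr1, which encodes F4/80, was at 309 ± 10.9 RPKM in exposed libraries and 338 ± 3.12 RPKM in untreated libraries. Its call as lower was lost in 6 of 14 alternatives, and its log2 change was 0.04 after median-of-ratios scaling (limma, adjusted p = 0.514). Others of the list moved further: Fcgr1 fell 7.09-fold, Cd14 3.96-fold and Itgam 3.61-fold, while Mertk rose 4.33-fold and Lyz2 1.45-fold. Of the 15 thymocyte and T cell markers, Cd3e, Cd8b1, Ptcra and Themis were at 0 in all 6 libraries, and Cd28 and Cd4, at 17.4 ± 0.460 and 2.14 ± 0.155 RPKM in exposed libraries and 33.5 ± 0.113 and 4.32 ± 0.165 RPKM in untreated libraries, were the tested ones. Over all 15 the summed level was 19.5 to 20.1 RPKM in exposed libraries and 37.9 to 38.0 RPKM in untreated libraries, nearly all of it from Cd28 and Cd4. Cd3d, Cd3g, Cd8a and Tcf7 had 4, 2, 4 and 5 reads over the exposed libraries and 0, 0, 1 and 2 over the untreated ones. Lck and Dntt went the other way, with 8 and 1 reads against 27 and 4. Trac, Rag1 and Bcl11b had 1 exposed read each, against 0, 2 and 1. Summed levels in exposed and then untreated libraries were 0.136 to 0.195 and 0.434 to 0.596 RPKM for B cell markers, 0.923 to 1.48 and 0 to 0.0515 for erythroid, 1.51 to 1.82 and 2.30 to 2.67 for stromal, and 2.17 to 2.38 and 0.369 to 0.430 for thymic epithelial markers, the last led by Prss16.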

How the data were processed

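Poly(A) RNA of 6 libraries in 2 groups was read as strand-specific TruSeq libraries on an Illumina NextSeq, per the labels' protocols. The authors deposited RPKM values with 1 column per library, per the file headers, annotated on mouse GRCm38 (mm10) per the submitters' processing notes. The aligner, counting program, gene models and use of strand are not given in the sources used here. One gene of a related list is not reported here by name. All columns matched a sample by title, and 0 belonged to none.

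Depth and reads were recovered from RPKM and gene length. Each of 18737 genes above 0 gave whole reads within 0.001 in all 6 libraries, 9371 with the GENCODE M21 union exon length and the others with the shortest length that did so. For markers this was 1632 (Chi3l3), 2325 (Ccl22) and 1310 bases (Il10) from GENCODE, and 5947 (Mrc1), 5092 (Il4ra), 598 (Retnla), 1289 (Ccl24) and 513 bases (Ccl17) by search, against M21 lengths of 6371, 6002, 599, 1295 and 514. Reads with a searched length could carry a common factor. Poisson intervals (95%) and the limit of 3 reads set for a count of 0 cover counting error only, since PCR duplicates cannot be recognised.

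Genes that reached 1 RPKM in 3 or more libraries entered limma 3.58.1 (R 4.3.3) on log2(RPKM + 1). The model held only the group, its variance prior followed mean intensity, and p was adjusted by the Benjamini-Hochberg method over all 10173. SE is the moderated standard error. Folds are ratios of mean RPKM. Tables were handled in Python 3.11.15 (pandas 2.3.3, numpy 2.4.6, scipy 1.17.1).

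The markers, 8 related lists and 9 cell type lists were chosen with earlier results of these data known. All entries of the interleukin 4 signalling, chemokine receptor, paralog and glucocorticoid lists could be named, and up to 5 tested genes with the smallest p of the others, with genes too low to be tested. Cd163 stands in 2 lists. Cell type lists covered macrophages, thymocytes and T cells, dendritic cells, B cells, neutrophils, eosinophils and mast cells, erythroid cells, stroma and thymic epithelium, and genes named from them were chosen after their values were seen. Alternatives were other pseudocounts, filters, scalings, no trend, each library left out with the same genes tested, and a replicate block.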

Additional observations from a re-analysis of the deposited data

How the results depend on the processing

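The calls and directions of Chi3l3, Il4ra and Il10 held in all 14 alternatives, with log2 changes of 5.21 to 6.67, 0.52 to 0.73 and -2.82 to -1.23. Mrc1 was higher in all 14 and passed in 3 of them, with median-of-ratios scaling (0.29), with upper-quartile scaling (0.30) and without exposed replicate 3 (0.20); the other 11 gave an adjusted p of up to 0.257 (limma). With no filter on low values, which tests 8 markers in place of 4, 5 markers were higher and 2 lower. Retnla, Ccl24 and Ccl17 then passed as higher (limma, adjusted p = 0.000364, 0.00605 and 0.0101) and Ccl22 as lower (0.0262), although each rests on at most 13 reads per library. Over all genes, median-of-ratios scaling gave 3234 higher and 2832 lower and upper-quartile scaling 3280 and 2814, against 1915 and 4679. The replicate numbers are shared by the groups, but same-numbered libraries did not deviate together (r of 0.197, -0.031 and -0.162 across tested genes), and not every library correlated best with that of its own number. With the replicate block 1904 genes were higher and 4627 lower, and of the markers 2 were higher and 1 lower. Depth limits the 4 low markers, whose counts have wide Poisson intervals. An interval of the ratio was computed for Ccl24 only, and it was wide.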
